A study of Mus musculus with 6 samples.

Results

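Colony-stimulating factors and the related growth factors of myeloid and lymphoid cells were examined in RENCA cells with forced Aqp1 expression. The group was set by name and held 10 genes of the 78298 in the deposited table. It comprised the ligands Csf1, Il34, Csf2, Csf3, Il15, Il7, Kitl and Flt3l and the receptors Csf1r and Il15ra. RENCA cells are an established line from a mouse renal adenocarcinoma. In the oe-AQP1 group the cells carried a lentivirus with the mouse Aqp1 coding sequence under the ubiquitin C promoter, and in the oe-NC group they carried the empty vector. From 48 hours after transduction both groups were kept for 14 days in puromycin (2 μg/mL), and each group had 3 samples, all labelled as 1 batch. The sources used here do not say whether the 3 samples of a group came from separate transductions, so the p-values measure the spread between these samples.

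These factors tell blood and immune cells to survive, divide and mature. CSF1 and IL-34 are 2 unrelated ligands of the same receptor tyrosine kinase, CSF1R, on which macrophages depend. GM-CSF (Csf2) and G-CSF (Csf3) act on granulocytes and macrophages, stem cell factor (Kitl) and FLT3 ligand (Flt3l) on progenitors, and IL-7 and IL-15 on lymphocytes. IL-15 is unusual in that the cell that makes it holds it on its own IL-15Rα chain and presents it to NK and T cells, which carry the β chain (Il2rb) and the common γ chain (Il2rg).

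Each sample had between 18385714.02 and 21920898.67 expected counts, the authors' estimated reads per gene. Aqp1, the transgene, had 7713, 8545 and 7838 counts in oe-AQP1 and 41, 25 and 45 in oe-NC samples, as labelled. The renal epithelial genes Pax8, Pax2, Krt8, Krt18 and Cdh16 were well counted, whereas Epcam was listed at 0 counts in all 6 samples. Krt8 (log2FC = -0.41), Krt18 (log2FC = -0.27), Cdh16 (log2FC = -0.63) and the fibroblast marker Col1a1 (log2FC = -0.73) were lower in oe-AQP1 at an FDR under 0.05. The fibroblast marker Pdgfrb (log2FC = 0.34) was higher at the same threshold. Of the other fibroblast markers listed, Pdgfra, Dcn and Lum had at most 1 count in any sample. Col1a2 had 12 to 19 counts and was not called (FDR = 0.825). The part of these markers in the results was not tested. Sample 1 of oe-NC stood apart. Its chi-square against the other 2 oe-NC samples was 9.75 and 11.3 per gene, against 1.74 to 2.06 for every other pair within a group, so the fold change of each tested gene of the group is also given without it. CPM is the count relative to the TMM-scaled library size, log2FC the difference between oe-AQP1 and oe-NC in log2 CPM (oe-AQP1 minus oe-NC) by limma-voom, and FDR its Benjamini-Hochberg adjusted p over all genes tested.

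Of the 10 genes, 8 had enough counts to be tested, and 6 passed an FDR under 0.05. Csf1, Csf2, Il15 and Il15ra rose and Csf1r and Il34 fell, while Il7 and Flt3l were not called. Among all 15522 genes tested, 32.5% passed this threshold, 16.0% higher and 16.6% lower. Csf2, Il15 and Csf1r also passed an absolute log2FC above 1, which 5.23% of all genes did. Il15 entered the test only through its counts in oe-AQP1, so its place among the called genes was partly fixed by the filter, and the count of 6 is a description. The CPM of the groups did not overlap for 7 of the 8 genes tested, against 47.3% of all genes tested. Nor did it for Csf3 and Kitl, which were not tested, though for Csf3 this rested on library size, the counts being tied at 1. The median log2FC of the 8 tested genes was 0.41, against 0.002 over all genes. The 8 include Il15, so this median and the 7 genes without overlap are descriptions too.

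**Figure D1:**
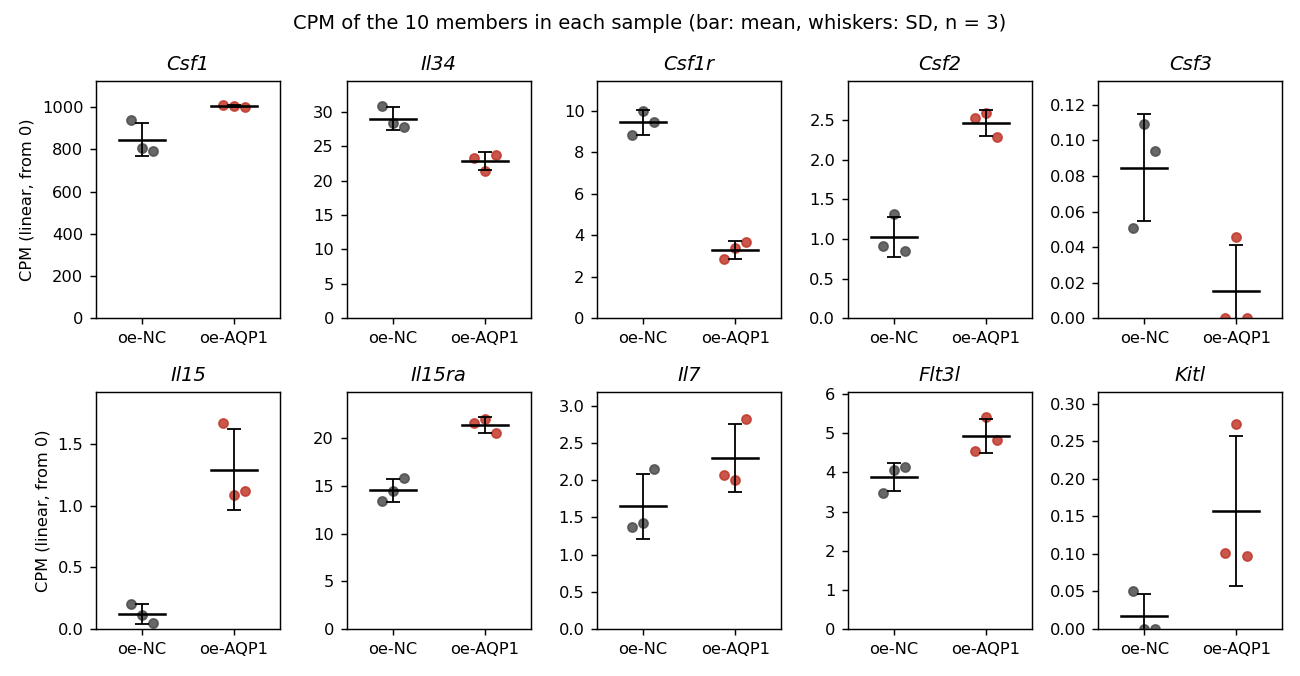
CPM of each of the 10 genes in the 6 samples, on linear axes from 0, with grey points for oe-NC and red points for oe-AQP1. Bars are means and whiskers SD (n = 3). The groups are apart for 9 genes and overlap for Il7, and Kitl and Csf3 stay below 0.3 CPM. For Csf3 they are apart only by library size, since oe-AQP1 sample 2 and oe-NC sample 1 both had 1 count.

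Csf1 encodes macrophage colony-stimulating factor and lies on chromosome 3 of GRCm39 from 107648364 to 107667806. It had 1007.7, 1007.2 and 1000.2 CPM in oe-AQP1 samples 1 to 3 and 936.8, 805.6 and 794.4 CPM in oe-NC samples 1 to 3. The lowest oe-AQP1 sample was above the highest oe-NC sample, and sample 1 of oe-NC lay nearest to the oe-AQP1 group. The rise was 1.19-fold (log2FC = 0.25, standard error 0.055, FDR = 0.00585 by limma-voom). Without that sample the log2FC was 0.33 (FDR = 3.29e-13). Leaving out any other single sample gave a log2FC from 0.21 to 0.26 and a weaker FDR, from 0.0236 to 0.0300 by limma-voom. Csf1 was already the most abundant of the group by a wide margin. Per kilobase of exons its level in oe-NC cells was 144 ± 13.5 CPM (SD, n = 3), higher than that of 98.5% of the genes tested.

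Il34 encodes the other CSF1R ligand (chromosome 8, 111423928 to 111532584). It moved the opposite way, with 23.3, 21.3 and 23.8 CPM in oe-AQP1 and 30.9, 28.3 and 27.8 CPM in oe-NC samples, with no overlap between groups. The fall was 1.27-fold (log2FC = -0.35, standard error 0.069, FDR = 0.00336 by limma-voom), and -0.30 without oe-NC sample 1. In oe-NC cells the level of Csf1 per kilobase was 19.7, 18.4 and 18.5 times that of Il34 in samples 1 to 3, and in oe-AQP1 cells 28.0, 30.6 and 27.3 times. This ratio was higher in every oe-AQP1 sample than in any oe-NC sample.

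Csf1r, their receptor (chromosome 18, 61229714 to 61266535), showed the largest decrease among the 8 genes tested. Its deposited counts were 55.57, 74.5 and 75.6 in oe-AQP1 samples and 173.2, 182.9 and 202.28 in oe-NC samples. In CPM the level fell from 9.43 ± 0.60 to 3.30 ± 0.44 (SD, n = 3), and the groups did not approach each other. This was 2.85-fold lower (log2FC = -1.51, standard error 0.13, FDR = 1.31e-05 by limma-voom), with a log2FC of -1.56 without oe-NC sample 1. Only 0.844% of all genes passed both thresholds in this direction. The deposited counts of Csf1r were fractional in all 6 samples, as arises where a counter divides reads among genes. Hmgxb3, a gene on the opposite strand, shares 1461 exonic bases with it, 19.8% of the exonic length of Csf1r, and the strand setting of the counting is not given in the sources used here. Hmgxb3 had 1025.43, 1062.5 and 1028.4 counts in oe-AQP1 and 999.8, 838.1 and 841.72 in oe-NC samples, with a log2FC of 0.15 (FDR = 0.200). It was not called and its estimate lay in the opposite direction to Csf1r. Without the strand, reads of Csf1r and Hmgxb3 in the shared bases cannot be told apart. The direction of Hmgxb3 does not settle this, and the part of the overlap in the fall of Csf1r was not tested.

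Because CSF1R is best known from macrophages, 14 other macrophage lineage markers were set beside it. Adgre1 (F4/80), Tyrobp, C1qa and C1qb were at 0 counts in all 6 samples, and Ptprc (CD45), which all leukocytes carry, had at most 3 counts. Zero counts allow up to 3 counts per sample, or 0.164 CPM in the smallest library. Cd68, Lyz2, Cd14 and the myeloid transcription factor Spi1 were measured at higher levels. Lyz2, a lysozyme, fell from 17.1 ± 0.12 to 11.9 ± 0.28 CPM (SD, n = 3, log2FC = -0.52, FDR = 2.73e-04 by limma-voom). Spi1 had a log2FC of 0.04 (FDR = 0.898), Cd14 one of -0.16 (FDR = 0.147) and Cd68 one of 0.15 (FDR = 0.0764). Aif1, with 11.93, 15 and 9 counts in oe-AQP1 and 5, 8 and 3.52 in oe-NC samples, and Mrc1, with 5, 2 and 2 against 0 in each oe-NC sample, were higher in oe-AQP1 without overlap but had too few counts to be tested. The summed level of the 14 markers came mostly from Cd68, Lyz2, Cd14 and Spi1. This sum ranged from 60.6 to 64.3 CPM in oe-AQP1 and from 63.2 to 67.0 CPM in oe-NC samples. Its part in the change of Csf1r was not tested. In such bulk samples fewer cells of a type and less RNA per cell cannot be told apart. T and NK cell markers had at most 3 counts in any sample for all 6 genes.

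**Figure D2:**
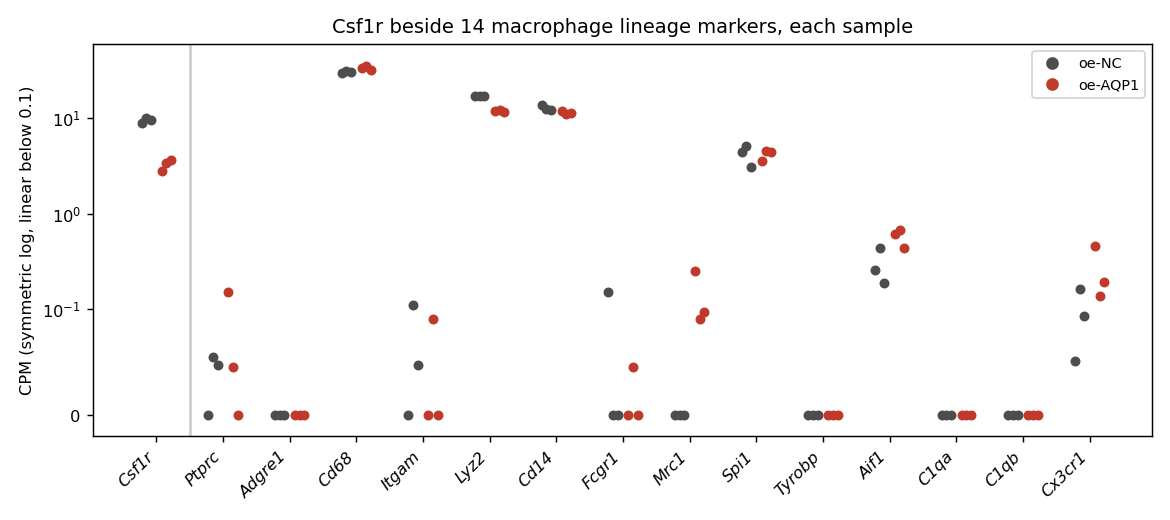
CPM of Csf1r and of 14 macrophage lineage markers in each of the 6 samples, on a symmetric log axis that is linear below 0.1 CPM. Csf1r lies lower in the 3 oe-AQP1 samples, Adgre1, Tyrobp, C1qa and C1qb lie at 0 throughout, and Cd68, Lyz2, Cd14 and Spi1 lie well above 1 CPM in both groups.

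Csf2 encodes GM-CSF (chromosome 11, 54138097 to 54140493). It had 50, 57 and 47 counts in oe-AQP1 and 18, 24 and 18 counts in oe-NC samples. The lowest oe-AQP1 sample had nearly 2 times the count of the highest oe-NC sample. In CPM the rise was from 1.02 ± 0.25 to 2.47 ± 0.16 (SD, n = 3), 2.44-fold (log2FC = 1.29, standard error 0.22, FDR = 0.00146 by limma-voom). Without oe-NC sample 1 the log2FC was 1.23. Gm57329, a lncRNA on the opposite strand with 149 shared exonic bases, had 10, 9 and 5 counts in oe-AQP1 samples, and 5, 4 and 2 were counted in oe-NC. Csf3, which encodes G-CSF (chromosome 11, 98592089 to 98594458), was near the limit of detection, with 0, 1 and 0 counts in oe-AQP1 and 1, 2 and 2 counts in oe-NC samples. Pooled over samples that is 1 count against 5, a ratio of 0.19 with an exact 95% interval from 0.00402 to 1.70 that covers counting error only. An exact two-sided permutation test of its CPM gave p = 0.1, the smallest that 3 samples against 3 allow. In CPM the groups did not overlap, but oe-AQP1 sample 2 and oe-NC sample 1 both had 1 count. Their CPM, and with it the p-value, was set apart only by library size. This test cannot pass a threshold of 0.05 with 3 samples a group, and the interval of the ratio includes 1. With no filter on low counts Csf3 had a log2FC of -1.66 (FDR = 0.148 by limma-voom).

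Il15 encodes interleukin 15 (chromosome 8, 83054226 to 83129874) and showed the largest change among the 8 genes tested. It had 33, 24 and 23 counts in oe-AQP1 samples and 4, 2 and 1 counts in oe-NC samples. The transcript was close to undetected in control cells and low but clearly counted in all 3 oe-AQP1 samples. By limma-voom the estimate was a log2FC of 3.32 (standard error 0.48, 95% interval 2.24 to 4.39, FDR = 5.17e-04), and 3.73 without oe-NC sample 1. The pooled counts, 80 against 7, gave a ratio of 10.9 with an exact 95% interval of counting error from 5.04 to 27.9. Only 7 counts in control cells stand behind this ratio, and its interval is wide.

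Il15ra, the chain that holds and presents IL-15 (chromosome 2, 11710101 to 11739128), was well counted in both groups. It had 427, 485 and 422 counts in oe-AQP1 and 263, 265 and 337 in oe-NC samples. In CPM these were 21.6, 22.1 and 20.5 against 13.4, 14.5 and 15.8, without overlap. The rise was 1.47-fold (log2FC = 0.55, standard error 0.077, FDR = 4.05e-04 by limma-voom), and the log2FC was 0.49 without oe-NC sample 1. Per kilobase, the receptor chain exceeded its ligand in every sample, by 103, 207 and 526 times in oe-NC and by 20.2, 31.5 and 28.6 times in oe-AQP1 samples 1 to 3. The oe-NC ratios rest on 4, 2 and 1 counts of Il15, so their size and spread are imprecise. The other chains of the IL-15 receptor were scarce. Il2rb had 8, 9 and 13 counts in oe-AQP1 and 11, 6 and 9 in oe-NC samples, and Il2rg had 1, 2 and 7 against 0, 1 and 1.

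**Figure D3:**
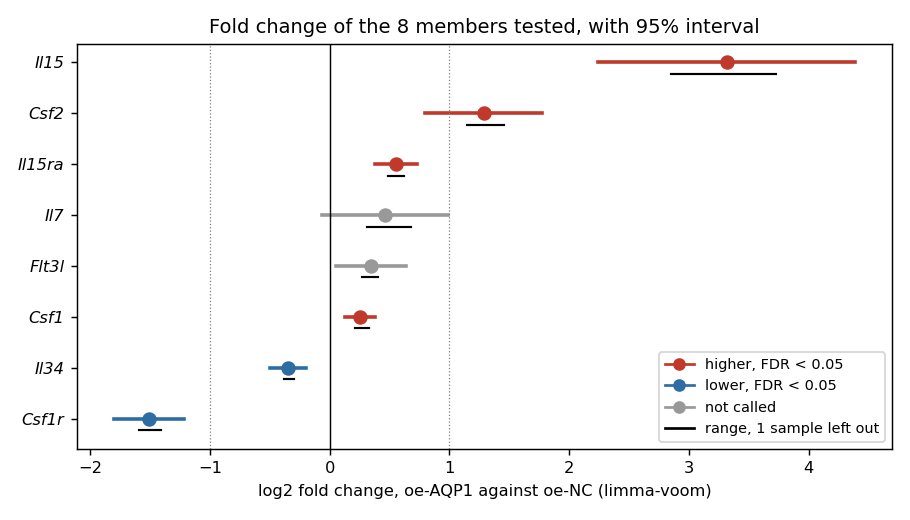
The log2FC between oe-AQP1 and oe-NC (positive is higher in oe-AQP1) of the 8 genes tested, as points with 95% intervals from limma-voom, red for higher, blue for lower and grey for not called. Black lines give the range when each sample is left out in turn. Il15 has the largest and widest estimate at 3.32, Csf1r is lowest at -1.51, and the intervals of the 6 called genes lie to one side of 0.

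Il7 encodes interleukin 7, the survival factor of developing lymphocytes (chromosome 3, 7635054 to 7678825). Its counts were 40.51, 44 and 57.77 in oe-AQP1 and 27, 26.42 and 45.5 in oe-NC samples, and its CPM overlapped between groups, with oe-NC sample 3 at 2.16 CPM above oe-AQP1 samples 1 and 2 at 2.07 and 2.00 CPM. The log2FC was 0.47 (95% interval -0.06 to 0.99, FDR = 0.160 by limma-voom), and 0.34 without oe-NC sample 1 (FDR = 0.328). An increase of nearly 2-fold and no change are both inside this interval. Gm16685, a lncRNA on the opposite strand, shares 662 exonic bases with Il7 and had 48.49, 36.96 and 40.2 counts in oe-AQP1 against 5, 9.58 and 9.5 in oe-NC samples. It rose, with a log2FC of 2.23 and a standard error of 0.33 (FDR = 5.84e-04 by limma-voom). Without the strand, reads of Il7 and Gm16685 in the shared bases cannot be told apart.

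Flt3l encodes FLT3 ligand, a growth factor of dendritic cells (chromosome 7, 44779212 to 44785875). It had 4.55, 5.41 and 4.82 CPM in oe-AQP1 and 3.46, 4.05 and 4.13 CPM in oe-NC samples. The groups did not overlap, but the log2FC of 0.35 (95% interval 0.05 to 0.64) had an FDR of 0.0738 by limma-voom and was not called. Without oe-NC sample 1 the log2FC of Flt3l was 0.27 (FDR = 0.190). The annotated gene Gm45713 on the same strand shares 856 exonic bases with it, 21.4% of the exonic length of Flt3l. Gm45713 had 0, 17.17 and 5.8 counts in oe-AQP1 and 0, 0 and 3.95 in oe-NC samples. The counts of Flt3l were fractional in 4 samples, and the part of this overlap in its estimate was not tested. Kitl, which encodes stem cell factor (chromosome 10, 99851492 to 99936278), had 2, 6 and 2 counts in oe-AQP1 and 1, 0 and 0 counts in oe-NC samples and did not pass the filter. The pooled counts were 10 against 1, a ratio of 9.50 with an exact 95% interval from 1.35 to 412, and the exact two-sided permutation test gave p = 0.1, again the smallest possible. With no filter on low counts Kitl had a log2FC of 2.17 (FDR = 0.0410 over 34240 genes by limma-voom), a call that rests on 11 reads in all.

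The order of levels per kilobase was compared within each group as a description. In oe-NC cells Csf1 came first, followed by Il34 (7.61 ± 0.43 CPM per kilobase), Il15ra (3.28 ± 0.27), Csf1r (1.28 ± 0.08), Csf2 (1.28 ± 0.32), Flt3l (0.972 ± 0.091), Il7 (0.291 ± 0.077), Csf3, Il15 and Kitl (SD, n = 3). Of neighbours in this order, only Csf1r and Csf2 overlapped. In oe-AQP1 cells Csf2 (3.09 ± 0.20) and Flt3l (1.23 ± 0.11) stood above Csf1r (0.448 ± 0.059), which overlapped with Il7 (0.405 ± 0.080). Il15, at 0.186 ± 0.047 CPM per kilobase, was above 5.8% of the genes tested in oe-AQP1 cells and above 0.2% in oe-NC cells. Kitl and Csf3 came last and overlapped.

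Most of these ligands had no matching receptor in the same cells. Kit, the receptor of stem cell factor, and Csf2ra, the ligand-binding chain for GM-CSF, had 0 counts in all 6 samples. Csf3r and Il7r each had at most 1 count, and Flt3 had 1 to 5. The signalling chain Csf2rb had 0 to 2 counts and its close paralog Csf2rb2 had 1 to 3, and reads between such copies may be split. Of the 18 receptor chains listed beside Csf1r and Il15ra, 3 passed the filter and 11 had at most 3 counts in every sample. Sdc1, a syndecan described as a binding partner of IL-34, was abundant and had a log2FC of -0.09 (FDR = 0.128 by limma-voom), whereas Ptprz1, another described IL-34 receptor, had at most 2 counts.

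**Figure D4:**
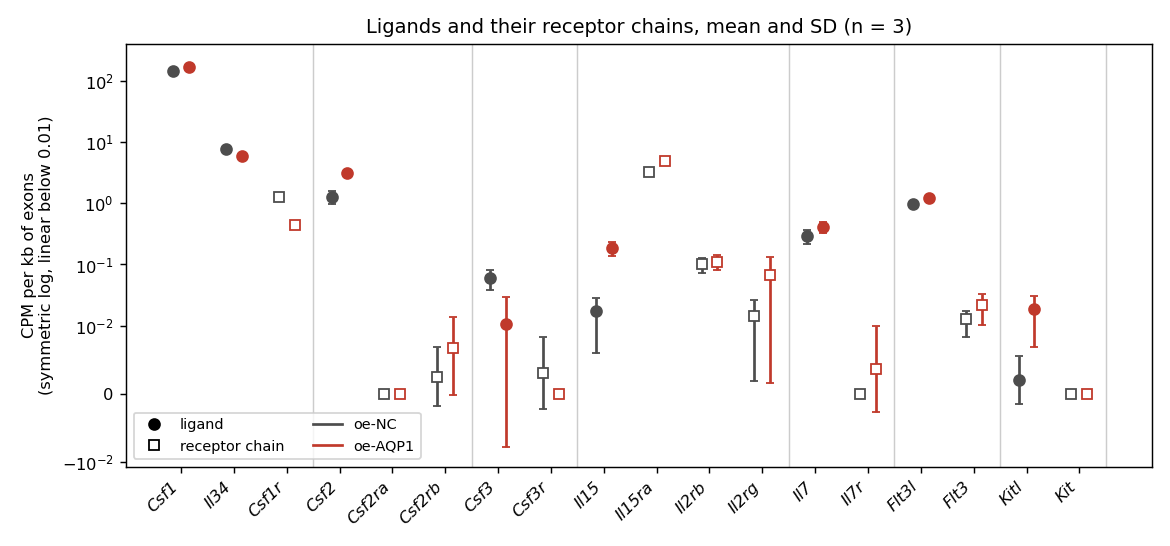
CPM per kilobase of exons for each ligand (filled circles) and receptor chain (open squares), mean and SD of 3 samples, grey for oe-NC and red for oe-AQP1, on a symmetric log axis that is linear below 0.01. Csf1 lies near 144 and 171, Il15ra lies above Il15, and Csf2ra and Kit lie at 0. Whiskers that reach below 0 are an SD larger than the mean.

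A list of 41 receptor chains, related ligands and signalling genes gave the wider context. Of these, 20 were tested, 2 rose and 3 fell at an FDR under 0.05, and their median log2FC was -0.05. The 5 calls among 20 genes stand beside 32.5% called among all genes tested, so the share in the list was no higher than the general one. Among the 16 signalling genes, Socs1, a feedback inhibitor of cytokine receptors, had 230, 222 and 240 counts in oe-AQP1 and 92, 48 and 61 in oe-NC samples. The rise had a log2FC of 1.75 and a standard error of 0.18 (FDR = 5.10e-05 by limma-voom). Socs2, a further member of that inhibitor family, rose by much less (log2FC = 0.27, FDR = 0.00233). The adaptor Shc1 (log2FC = -0.13, FDR = 0.0187) and the kinase Jak1 (log2FC = -0.11, FDR = 0.0457) fell slightly. The TSLP receptor chain Crlf2 also fell (log2FC = -0.27, FDR = 0.0391), a call lost without oe-NC sample 1 (log2FC = -0.17, FDR = 0.0578). Socs1 and Socs2 were called under all 17 alternative settings, Shc1 under 13, Crlf2 under 10 and Jak1 under 6. Stat5a and Stat5b, which carry the signal of most of these receptors, had log2FC of -0.06 (FDR = 0.471) and 0.07 (FDR = 0.343). Their target Cish had a log2FC of 0.38 (FDR = 0.206). Without oe-NC sample 1 Stat5b (log2FC = 0.13, FDR = 0.00382) and Cish (log2FC = 0.55, FDR = 0.0493) passed the threshold. Stat5a and Stat5b are close paralogs with fractional counts, between which reads may be split.

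The promoters of Csf1 and Il15ra, both of which rose, are shown to display where matches to motifs of inflammatory factors fell. RefSeq promoter windows of GRCm38.p6, with 250 bases before and 50 after a start site, were found for 5 of the 10 genes, in 6 windows. None was found for Il15, Il7, Il34, Csf3 and Csf1r, so the promoters of these genes were not searched. Capitals mark matches on either strand.
Csf1 (chr3:107760420-107760719, minus strand): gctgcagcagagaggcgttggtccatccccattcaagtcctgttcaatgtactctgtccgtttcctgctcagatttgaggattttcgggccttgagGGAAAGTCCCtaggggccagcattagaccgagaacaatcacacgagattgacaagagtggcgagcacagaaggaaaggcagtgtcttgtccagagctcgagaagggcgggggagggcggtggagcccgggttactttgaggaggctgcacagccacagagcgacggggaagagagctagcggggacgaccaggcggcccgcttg
Il15ra, first start (chr2:11705043-11705342, plus strand): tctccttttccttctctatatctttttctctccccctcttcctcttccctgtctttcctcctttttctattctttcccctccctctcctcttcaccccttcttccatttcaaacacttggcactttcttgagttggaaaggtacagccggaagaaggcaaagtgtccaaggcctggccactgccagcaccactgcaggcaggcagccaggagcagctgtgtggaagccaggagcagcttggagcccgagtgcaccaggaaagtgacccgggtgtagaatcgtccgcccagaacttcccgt
Il15ra, second start (chr2:11705462-11705761, plus strand): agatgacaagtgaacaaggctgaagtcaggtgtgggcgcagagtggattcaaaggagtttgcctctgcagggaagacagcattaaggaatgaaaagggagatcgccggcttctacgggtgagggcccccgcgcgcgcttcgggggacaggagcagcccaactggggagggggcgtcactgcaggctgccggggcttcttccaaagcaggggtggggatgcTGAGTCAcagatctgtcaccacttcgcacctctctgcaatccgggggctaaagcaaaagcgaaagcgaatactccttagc
The Csf1 window held 1 match to the NF-κB consensus of 10 bases, and the second Il15ra window held 1 match to the AP-1 motif TGANTCA. Matched to GRCm39, the start sites of the Csf1 window and of both Il15ra windows lay 21, 3 and 422 bases downstream of the annotated gene starts. The start site of the Csf2 window, which is not shown, lay 232 bases upstream of the annotated gene start. That window held none of the 4 motifs. Among the 6 windows, the interferon-stimulated response element, searched as GAAA repeated after a gap of 2 bases, was found only in that of Flt3l. It lay 10 bases before the start site, and Flt3l was not called. The STAT motif TTCNNNGAA was in none of the 6 windows. The Kitl window, with a start site 191 bases downstream of the annotated gene start, held 1 NF-κB match. Over all 32851 windows, 8.46% held the NF-κB consensus, 7.81% the AP-1 motif, 3.44% the interferon motif and 8.30% the STAT motif, so single matches are common. A match is a description of letters, and a missing match says only that these letters are not in the window.

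The genes with the pattern across the 6 samples most like that of each of the 3 genes past both thresholds were sought among 10572 well-counted protein-coding genes, as log2 of CPM plus 0.5. Closest to Il15 were Lif, which encodes leukemia inhibitory factor (r = 0.9972), and B4galt5 (r = 0.9967). Closest to Csf2 were Cstf3 (r = 0.9954) and Pdp1 (r = 0.9945), and closest to Csf1r were Anapc1 (r = 0.9992) and Usp24 (r = 0.9990). Each r is Pearson's over the same 6 libraries, 3 a group, and is given as a description. The 3 genes were chosen for a large difference between groups, and 47.3% of all genes tested had groups apart in CPM. A difference between groups can by itself give a high r. How many of the genes searched reach such values was not counted, and shared regulation was not tested. The changes of these neighbours were smaller than those of the genes they resemble, with log2FC from -0.45 for Usp24 to 0.42 for B4galt5.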

How the data were processed

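Total RNA from 6 RENCA samples, 3 oe-AQP1 and 3 oe-NC, was sequenced from Illumina TruSeq libraries. The authors deposited expected counts, which need not be whole, for 78298 genes, and 2 columns of group means that were not used. The paper names GRCm39, while the submitters' processing notes list GRCm38 and mm10 with fastp, HISAT2, featureCounts and Subread. Gene identifiers matched GENCODE M39 (GRCm39) for 99.83% of genes, and positions and exon lengths came from it. The counting settings and the strand are not given in the sources used here.

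Expected counts were rounded, filtered with filterByExpr (15522 genes kept), scaled by TMM and compared by limma-voom (limma 3.58.1, edgeR 4.0.16, R 4.3.3). The study's methods state limma-voom, TMM and both thresholds, while the rounding and the filter were chosen here. As alternatives, DESeq2 1.42.0, the quasi-likelihood test of edgeR and sample quality weights were used, with 3 scalings, 3 filters, unrounded counts, a block for sample number and leaving out each sample. Levels between genes are CPM per kilobase of exons. Exact intervals of low counts used scipy 1.17.1.

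The 10 genes, the lists and the tests were chosen with earlier results of these data known. Genes named beyond the 10 were Aqp1, list genes with an FDR under 0.05, markers, genes that overlap the 10, and for each of the 10 past both thresholds the 2 genes with the highest correlation. Receptor chains and signalling genes without a call are named as values, some chosen after their values were seen. Each sample had over 18385714 counts, so 3 counts correspond to 0.136 to 0.164 CPM. The exact intervals of pooled counts cover counting error only, whereas the limma-voom intervals also rest on the spread between samples.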

Additional observations from a re-analysis of the deposited data

How the results depend on the processing

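The log2 fold changes of the 8 tested genes kept their direction and their side of the FDR threshold under every alternative that gave a value, and so did Aqp1. Il15 was not tested under a filter of at least 10 counts in all samples, which left 5 called genes of the group, and with no filter Kitl was added, for 7. At an FDR under 0.01, 6 genes of the group passed, and 3142 of all genes against 5050. With both thresholds 812 genes passed, and 482 with at least 10 counts in every sample. The list of 41 receptor, ligand and signalling genes was less stable, with 5 calls, 2 by DESeq2, and 2 to 6 when 1 sample was left out. Fits with 1 sample left out gave 2 calls without oe-AQP1 sample 1 or 2, and 3 without oe-AQP1 sample 3 or oe-NC sample 2. Between samples of the same number, deviations from the group means correlated at -0.000111, 0.0153 and -0.0527 for numbers 1 to 3. No shared deviation was seen, but this cannot tell whether samples of the same number were handled together. With the replicate block 6 genes of the group were called, 4825 of all genes passed the FDR threshold, and 786 passed both. With the longest transcript as gene length Flt3l, at 1.56 CPM per kilobase in oe-NC cells, stood above Csf1r at 1.48 and Csf2 at 1.28.

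At most 4 counts per sample stand behind Il15, Kitl and Csf3 in control cells, and for Kitl and Csf3 the permutation test of 3 samples against 3 cannot go below p = 0.1.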
